A study of Mus musculus with 12 samples.

Results

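The 10 genes described here (Axin2, Nkd1, Notum, Rnf43, Znrf3, Apcdd1, Sfrp1, Tcf7, Lef1 and Sp5) are feedback and target genes of Wnt signalling. They were chosen by name, with earlier results of these data known, and all 10 were found among the 48795 genes of the deposited table. Total RNA was sequenced from mouse colonic organoids, that is, crypt epithelium cultured in Matrigel. All organoids were of the C57BL/6 background and were either wild type (WT) or labelled AhR deficient (KO). AhR is the aryl hydrocarbon receptor, a transcription factor that responds to ligands from the diet and from microbes. Each genotype was measured in the stem cell condition (WENR medium, which holds Wnt-3A besides EGF, Noggin and R-spondin-1) and in the differentiated condition (ENR medium, 3 days without Wnt-3A). Each of these 4 groups had 3 libraries. The labels name neither the AhR allele nor the age of the mice, and leave unsaid if libraries of 1 group are different animals or cultures, so the p-values cover library-to-library spread, which may be technical.

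Wnt ligands bind Frizzled receptors and LRP co-receptors, which stops the destruction complex from degrading beta-catenin. Beta-catenin then enters the nucleus and activates genes together with TCF/LEF factors. In the colon this signal is strongest at the crypt base, where it maintains stem cells. Many of the genes it activates act back on the pathway: Axin2 rebuilds the destruction complex, Nkd1 binds Dishevelled, Notum removes the lipid that Wnt ligands need, and Rnf43 and Znrf3 remove Frizzled receptors from the cell surface. Apcdd1 and Sfrp1 inhibit Wnt outside the cell, Tcf7 and Lef1 are TCF/LEF factors themselves, and Sp5 is a transcription factor gene widely used as a direct Wnt target.

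Libraries held between 25.1 and 99.0 M reads in genes. Values are normalized counts, on which 1 read was worth between 0.539 and 2.27 depending on the library, so that 3 reads correspond to between 1.62 and 6.81. Log2 changes are on the scale of log2(normalized count + 1), are given ± SE and come from a limma fit of all 12 libraries, with p-values adjusted over 14856 genes and a gene called at an adjusted p under 0.05. All 7 epithelial markers checked (among them Epcam, Cdh1 and Vil1) were detected in every library. Cyp1b1, which AhR induces, had a mean of 8144 in WT and 416 in KO stem libraries, and of 629 and 16.5 in the differentiated ones. The whole-gene count of Ahr itself was higher in KO than in WT, at 2675 against 1806 and at 3429.9 against 2208, and does not show which part of the gene was transcribed. WT stem library 1 stood apart in the summed level of 13 fibroblast and muscle markers, which was 22290.1 there (4 of 13 at 0), 645 in KO stem library 3 and between 57.2 and 171 in the other 10 libraries.

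Of the 10 genes, 6 reached a normalized count of 10 in all 12 libraries (Axin2, Notum, Rnf43, Znrf3, Tcf7 and Sp5). Nkd1 and Sfrp1 reached it in the stem libraries only, Apcdd1 in those and 1 KO differentiated library, and Lef1 in all groups but WT differentiated. These 4 passed the filter on low values (at least 10 in at least 3 libraries) through the groups in which they are high. Axin2 and Lef1 share exon sequence with antisense genes that reached 1.07 and 2.04 at most, and a sense intronic gene inside Rnf43 (up to 115) shares no exon with it. Per kilobase of exon, Rnf43 was the most abundant in every group, with 1807 ± 262 (SD, n = 3) normalized counts per kb in WT stem, and Axin2 came next with 1231 ± 212. Tcf7 at 586 ± 24.5 and Sp5 at 535 ± 124 overlapped each other in that group. They were followed per kb by Notum (172), Znrf3 (134) and Sfrp1 (53.3), with Nkd1 (5.90) and Lef1 (5.78) overlapping each other and Apcdd1 last (1.50). In WT differentiated organoids Rnf43 (1357 per kb), Axin2 (382), Tcf7 (304), Sp5 (162), Znrf3 (58.5) and Notum (23.3) did not overlap their neighbours in this order, whereas the 4 lowest genes had means of 0.785 per kb or less and overlapped one another in turn. In KO differentiated organoids the ranges of Axin2 (627 per kb) and Tcf7 (510.5) overlapped, as did those of Tcf7 and Sp5 (408).

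The promoters of Sp5 and Axin2 are shown as examples picked by name. Both are Wnt targets whose RNA differed between the genotypes after Wnt-3A was left out. The same was so for Rnf43, Znrf3, Tcf7 and Lef1, whose sequences are not shown. Both sequences are the 250 bases before the start site on the + strand of GRCm38.p6, from RefSeq, at chr2:70474673-70474922 for Sp5 and chr11:108920099-108920348 for Axin2. Capitals mark a TCF/LEF core (any of the strings CTTTGAA and CTTTGAT, or with T in place of A before the last base, CTTTGTA and CTTTGTT) on either strand.
Sp5: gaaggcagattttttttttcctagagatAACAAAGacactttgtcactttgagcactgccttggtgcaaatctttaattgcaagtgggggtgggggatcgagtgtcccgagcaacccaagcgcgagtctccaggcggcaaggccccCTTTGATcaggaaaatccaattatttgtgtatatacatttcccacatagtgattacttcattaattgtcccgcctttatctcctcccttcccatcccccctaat
Axin2: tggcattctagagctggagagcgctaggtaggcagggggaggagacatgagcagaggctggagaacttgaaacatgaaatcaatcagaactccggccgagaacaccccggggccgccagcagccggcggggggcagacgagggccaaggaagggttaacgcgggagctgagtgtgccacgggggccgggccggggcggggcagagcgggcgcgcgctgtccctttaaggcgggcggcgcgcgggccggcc
Sp5 held CTTTGAT from base -104 and, on the other strand, CTTTGTT from base -222, counted from the start site. The Axin2 window held none of the 4 cores, which says only that these letters are not in this window.

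When Wnt-3A was left out, the 6 genes that reached 10 in every library (Axin2, Notum, Rnf43, Znrf3, Tcf7 and Sp5) all fell in WT organoids. Among these Notum dropped to 13.5% of its stem level, whereas Rnf43 kept 75.1%. Nkd1, Sfrp1, Apcdd1 and Lef1 were called as lower too, but reached 10 in none of the WT differentiated libraries and entered the test through groups in which they are high, so their calls are a description. Sfrp1 stood at 1.47% of its stem level (2.97% without WT stem library 1 and 0.747% without WT differentiated library 3) and Lef1 at 7.92% (13.8% without WT stem library 2). Of all genes tested, 35.9% fell, 36.3% rose and 72.2% were called in this comparison. The median log2 change was -1.44 for the 6 genes and -1.71 for all 10, against 0.01 for all genes tested. The WT stem and WT differentiated libraries did not overlap for any of the 10, as was the case for 75% of all genes. In a bulk sample, fewer cells of a type and less RNA per cell cannot be told apart.

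In KO organoids 4 of the same 6 genes fell on leaving out Wnt-3A (Axin2, Notum, Znrf3 and Sp5), and Rnf43 and Tcf7 did not pass the test. Of the other 4, Nkd1, Lef1 and Sfrp1 were called as lower and Apcdd1 was not called. Nkd1 and Sfrp1 reached 10 in none of the KO differentiated libraries. They entered the test through the stem groups, in which they are high, so their calls are a description. Tcf7 stood at 92.6% of its stem level, Rnf43 at 91.4% and Sp5, which fell, at 66.0%, while Sfrp1 dropped to 4.79%. Of all genes, 33.6% fell, 34.1% rose and 67.7% were called. The median log2 change was -0.76 for the 6 genes and -0.94 for all 10, and that of all genes 0.01. The groups did not overlap for 7 of the 10, against 74.3% of all genes. The count of 7 called changed with single libraries. It was 6, with Sp5 lost, without KO stem library 3, KO differentiated library 2 or KO differentiated library 3. Without KO differentiated library 1, the highest of its group for 7 of the 10 genes, 9 were called, with Tcf7 at -0.26 (adjusted p = 0.0192) and Apcdd1 at -1.24 (adjusted p = 0.0163) now past the threshold.

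With Wnt-3A present, KO did not differ from WT beyond the spread for any of the 10 genes. In this comparison limma called 6.57% of all genes, 3.48% as higher and 3.09% as lower in KO. The unadjusted limma p was under 0.05 for 0 of the 10 and for 3658 of the 14856 genes tested. On recovered reads, edgeR and DESeq2 also called 0 of the 10. Log2 changes lay between -0.55 (Apcdd1) and 0.93 (Lef1) with a median of 0.06, against -0.04 for all genes, and the libraries of both genotypes did not overlap for Apcdd1 alone, where 29.5% of all genes did not. For Axin2 the 95% interval of the log2 difference was -0.28 to 0.31. It was wider for Lef1 (-0.15 to 2.01), Sfrp1 (-1.46 to 0.99), Apcdd1 (-1.44 to 0.34) and Nkd1 (-1.43 to 0.61). For these genes the lack of a call does not show equal levels.

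After Wnt-3A was left out, 6 of the 10 genes were higher in KO than in WT: Axin2, Rnf43, Znrf3, Tcf7, Lef1 and Sp5. Their ratios of KO to WT mean levels were 1.64, 1.30, 1.39, 1.68, 4.88 and 2.53. Among all genes 13.8% rose, 13.9% fell and 27.6% were called. Of the 6 genes at 10 or more in every library, 5 rose, and Lef1 was the only one of the other 4 to do so. These 4 reached 10 in none of the WT differentiated libraries and entered the test through groups in which they are high. Their values here, the call of Lef1 among them, are a description. None of the 10 fell. The median log2 change was 0.64 for the 6 genes and 0.72 for all 10, against 0.02 for all genes. All 10 changes were above 0, but that of Apcdd1 was -0.088 without KO differentiated library 1. The libraries did not overlap for 7 of the 10 (the 6 that rose and Nkd1), against 53.1% of all genes. The count was 5 without KO differentiated library 1 or WT differentiated library 1, 4 without WT differentiated library 3 and 7 without WT stem library 1.

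Other genes differed between the same groups. The summed level of 5 mature colonocyte markers (Krt20, Car1, Slc26a3, Aqp8 and Ceacam1, none at 0) lay between 332027 and 364057 in WT differentiated and between 136952 and 191923 in KO differentiated libraries. KO differentiated library 1, in which 7 of the 10 genes were highest, had the lowest of these sums. Most of each sum was Ceacam1, at 229770, 248163 and 230951 in WT differentiated and at 123787, 157999 and 154007 in KO differentiated libraries. In the stem cell condition the sums of both genotypes overlapped (176189 to 240882 in WT and 179821 to 186734 in KO). Krt20 alone, a keratin of surface colonocytes, was at 30197, 22425 and 28678 in WT differentiated and at 3248, 9106 and 8947 in KO differentiated libraries. It was lower in KO in the stem cell condition as well, where none of the 10 genes was called. Its means there were 51.3 in KO and 243 in WT (-2.14 ± 0.44, adjusted p = 0.0166). The summed level of 4 crypt base markers (Lgr5, Ascl2, Smoc2 and Olfm4, with at most 1 at 0 in a library) went the other way, from 1958 to 2053 in WT and from 3949.6 to 4519.9 in KO. Most of this sum was Lgr5, at 1832, 1939.7 and 1833 in WT and at 3994, 3544 and 3825 in KO. Olfm4 reached 2.27 at most in these libraries. The part of the colonocyte and crypt base markers in the differences of the 10 genes was not tested.

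**Figure D1:**
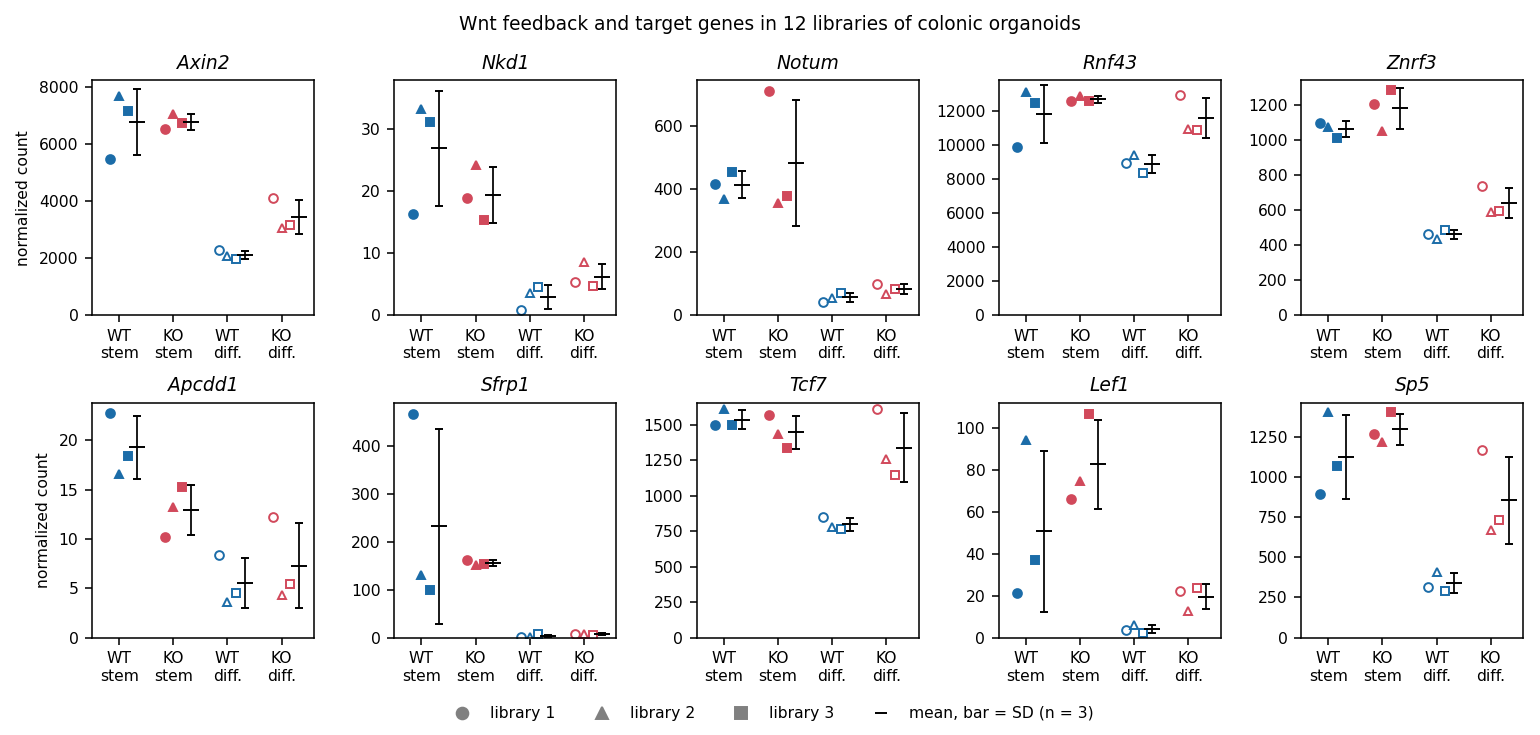
Normalized counts (y axes, linear from 0, a different scale for each gene) of the 10 genes in the 4 groups (x axes). Each symbol is 1 library (circle, triangle and square for libraries 1, 2 and 3), blue for WT and red for KO, filled in the stem cell and open in the differentiated condition, and the black bar is the mean ± SD of 3 libraries. Open blue symbols lie below filled blue symbols for every gene, and open red symbols lie above open blue symbols for Axin2, Nkd1, Rnf43, Znrf3, Tcf7, Lef1 and Sp5.

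Axin2 (ENSMUSG00000000142, chr11:108920349-108950783, + strand, GRCm38) encodes a scaffold of the destruction complex. It had 5469.8, 7705 and 7161 normalized counts in the WT stem libraries and 6521, 7061 and 6742 in KO stem. In the differentiated condition it had 2273, 2071 and 1972 in WT and 4125, 3047 and 3176 in KO. Every differentiated library was below every stem library, and within the differentiated condition every KO library was above every WT library. The log2 change on leaving out Wnt-3A was -1.67 ± 0.13 in WT (adjusted p = 4.72e-07) and -0.99 ± 0.13 in KO (adjusted p = 4.86e-05). KO against WT in the differentiated condition gave 0.70 ± 0.13 (adjusted p = 0.00422) and kept the call in each repeat without 1 library (0.57 to 0.78). The RNA left in the differentiated condition was thus 31.1% of the stem level in WT and 50.9% in KO. The interaction, that is, the difference between these responses, was 0.69 ± 0.19 (adjusted p = 0.0466). This call was lost without any 1 library other than WT stem library 1 (adjusted p between 0.0517 and 0.118). It was also lost with no filter (0.0718), with quantile normalization (0.0634) and with edgeR on recovered reads (0.0582). With the replicate number as a block in limma it was lost too (0.0503, and 0.0701 with the block within genotype). The labels do not say what these numbers mark. Without WT stem library 1 the term was 0.83 (adjusted p = 0.0135).

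Nkd1 (ENSMUSG00000031661, chr8:88521354-88594884, + strand), whose product binds Dishevelled, was a low gene. WT stem libraries had 16.3, 33.2 and 31.2 normalized counts and KO stem libraries 18.9, 24.2 and 15.3. WT differentiated libraries had 0.763, 3.58 and 4.54, which are 1, 3 and 2 reads, and KO differentiated libraries 5.33, 8.55 and 4.77. Stem and differentiated libraries were apart in both genotypes, and the change was -2.91 ± 0.46 in WT (adjusted p = 1.42e-04) and -1.51 ± 0.46 in KO (adjusted p = 0.0127). With a pseudocount of 5 the WT change was -1.99. Nkd1 entered the test through the stem libraries, in which it is high, so these calls are a description. KO against WT in the differentiated condition was 0.99 ± 0.46 and did not pass the test (adjusted p = 0.135), although the libraries did not overlap. That comparison rests on 6 reads in WT and 22 in KO.

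Notum (ENSMUSG00000042988, chr11:120653788-120661175, - strand), the secreted enzyme that inactivates Wnt ligands, had 417, 369 and 455 normalized counts in WT stem and 712, 356 and 379.7 in KO stem. It had 42.7, 54.9 and 70.4 in WT differentiated and 99.8, 67.4 and 81.8 in KO differentiated libraries. KO stem library 1 was far above the other stem libraries, and the WT and KO differentiated libraries overlapped between 67.4 and 70.4. Among the 6 abundant genes Notum fell furthest, by 2.89 ± 0.27 on the log2 scale in WT (adjusted p = 1.62e-06) and by 2.47 ± 0.27 in KO (adjusted p = 8.17e-06). KO and WT were not distinguishable in the differentiated condition (0.57 ± 0.27, adjusted p = 0.135). Notum overlaps the antisense gene Notumos, which reached 10.8 at most, and without strand in the counting their reads cannot be told apart.

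Rnf43 (ENSMUSG00000034177, chr11:87662722-87735539, + strand) and Znrf3 (ENSMUSG00000041961, chr11:5276324-5444847, - strand) encode related ubiquitin ligases that clear Frizzled receptors. Rnf43 had 9901, 13137 and 12518 normalized counts in WT stem and 12605, 12909.6 and 12588 in KO stem libraries. In the differentiated condition it had 8933, 9415 and 8352 in WT and 12943, 10981 and 10897 in KO. WT differentiated libraries were thus the lowest of the 4 groups, and KO differentiated library 1 lay above all 3 KO stem libraries. Rnf43 fell in WT (-0.40 ± 0.10, adjusted p = 0.00374) and was not called in KO (-0.13 ± 0.10, adjusted p = 0.262). The difference of KO from WT in the differentiated condition was 0.38 ± 0.10 (adjusted p = 0.0188), a call lost without WT differentiated library 1 (adjusted p = 0.0528), WT differentiated library 3 (0.0776) or KO differentiated library 1 (0.0775).

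Znrf3 was less abundant than Rnf43 per kb in every group. It had 1097, 1077 and 1009.8 normalized counts in WT stem, 1208, 1055 and 1284 in KO stem, 463, 437 and 486 in WT differentiated and 739.7, 588 and 595 in KO differentiated libraries. Unlike those of Rnf43, its stem and differentiated libraries were apart in both genotypes. The log2 change was -1.20 ± 0.10 in WT (adjusted p = 9.59e-07) and -0.89 ± 0.10 in KO (adjusted p = 1.60e-05), and KO was above WT in the differentiated condition by 0.46 ± 0.10 (adjusted p = 0.00878). The interaction passed the test neither for Rnf43 (0.27 ± 0.14, adjusted p = 0.251) nor for Znrf3 (0.31 ± 0.15, adjusted p = 0.198), and that of Rnf43 did so without WT stem library 1 (adjusted p = 0.0395).

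Sfrp1 (ENSMUSG00000031548, chr8:23411502-23449632, + strand), a secreted protein that binds Wnt ligands, showed the largest fall of the 10 genes. Sfrp1 entered the test through the stem libraries, in which it is high, so its calls are a description. WT stem libraries had 468, 131 and 100.4 normalized counts and KO stem libraries 163, 151 and 154. In the differentiated condition the WT libraries had 2.29, 1.19 and 6.81 (3, 1 and 3 reads) and the KO libraries 8.38, 8.55 and 5.45. WT stem library 1 stood above all others, and it is the library with the high fibroblast and muscle markers, whose part in this value was not tested. The log2 change was -5.59 ± 0.56 in WT (adjusted p = 2.96e-06) and -4.23 ± 0.56 in KO (adjusted p = 3.81e-05), and the WT change was -4.91 without WT stem library 1 and -4.54 with a pseudocount of 5. KO against WT in the stem cell condition turned from -0.23 to 0.44 without that library, neither being called. In the differentiated condition KO against WT was 1.12 ± 0.56 (adjusted p = 0.156), on 7 reads in WT and 27 in KO, and was called without WT stem library 1 (adjusted p = 0.0492).

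Apcdd1 (ENSMUSG00000071847, chr18:62922231-62961179, + strand), a membrane protein that inhibits Wnt signalling, was the lowest of the 10 per kb. It had 22.8, 16.6 and 18.5 normalized counts in WT stem and 10.2, 13.2 and 15.3 in KO stem libraries, which did not overlap but whose difference was not called (-0.55 ± 0.40, adjusted p = 0.428). WT differentiated libraries had 8.39, 3.58 and 4.54 and KO differentiated libraries 12.2, 4.28 and 5.45. Library 1 was the highest in both differentiated groups. Apcdd1 was called as lower in WT (-1.70 ± 0.40, adjusted p = 0.0026), and the change in KO was -0.84 ± 0.40 (adjusted p = 0.0846). Apcdd1 entered the test through the stem libraries, in which it is high, so these values are a description. KO against WT in the differentiated condition was 0.30 ± 0.40 (adjusted p = 0.608) and -0.088 without KO differentiated library 1.

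Tcf7 (ENSMUSG00000000782, chr11:52252371-52283014, - strand), which encodes the factor TCF1, had the lowest adjusted p of the 10 genes for the difference in response between genotypes. It had 1503, 1612 and 1499 normalized counts in WT stem, 1568, 1433 and 1341 in KO stem, 849.9, 779.9 and 768 in WT differentiated and 1614, 1258 and 1148 in KO differentiated libraries. WT differentiated libraries lay below all 9 others, whereas KO differentiated library 1 was the highest of all 12. Tcf7 fell in WT by 0.94 ± 0.11 on the log2 scale (adjusted p = 1.36e-05). The change in KO was -0.12 ± 0.11 (adjusted p = 0.352), so that 52.0% of the stem level remained in WT and 92.6% in KO. KO was above WT in the differentiated condition by 0.73 ± 0.11 (adjusted p = 0.00162). The interaction was 0.82 ± 0.16 (adjusted p = 0.0161), and its call was kept in each repeat without 1 library (highest adjusted p = 0.0489).

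Lef1 (ENSMUSG00000027985, chr3:131110471-131224356, + strand), the other TCF/LEF factor, was much lower than Tcf7 per kb. It had 21.2, 94.2 and 36.9 normalized counts in WT stem and 66.3, 74.9 and 107 in KO stem libraries, a wide and overlapping spread. It had 3.81, 5.97 and 2.27 (5, 5 and 1 reads) in WT differentiated and 22.1, 12.8 and 23.9 in KO differentiated libraries. All KO differentiated libraries were above all WT differentiated ones, and KO differentiated libraries 1 and 3 were also above WT stem library 1. The log2 change was -3.17 ± 0.49 in WT (adjusted p = 1.15e-04) and -2.04 ± 0.49 in KO (adjusted p = 0.0032). KO against WT in the differentiated condition was 2.06 ± 0.49 (adjusted p = 0.0114), was 1.44 with a pseudocount of 5, and lost its call without WT differentiated library 3 (adjusted p = 0.051). Lef1 entered the test through groups other than WT differentiated, so its calls against that group are a description. The interaction was not called (1.13 ± 0.70, adjusted p = 0.320).

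Sp5 (ENSMUSG00000075304, chr2:70474923-70477729, + strand) had 895, 1407 and 1071 normalized counts in WT stem and 1268, 1221 and 1407 in KO stem libraries. It had 315, 409.7 and 293 in WT differentiated and 1168, 671 and 732 in KO differentiated libraries. KO differentiated libraries lay above WT differentiated ones, and library 1 reached into the range of the WT stem libraries. The change was -1.72 ± 0.22 in WT (adjusted p = 2.12e-05) and -0.64 ± 0.22 in KO (adjusted p = 0.0205). The KO call was lost without KO stem library 3 (adjusted p = 0.0645), KO differentiated library 2 (0.0878) or KO differentiated library 3 (0.0722). KO exceeded WT in the differentiated condition by 1.31 ± 0.22 (adjusted p = 0.00225), which was 1.06 without KO differentiated library 1 and stayed called. The interaction of 1.08 ± 0.31 lay just outside the threshold (adjusted p = 0.0515) and was called without WT stem library 1 (0.0321) or KO differentiated library 2 (0.0499).

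**Figure D2:**
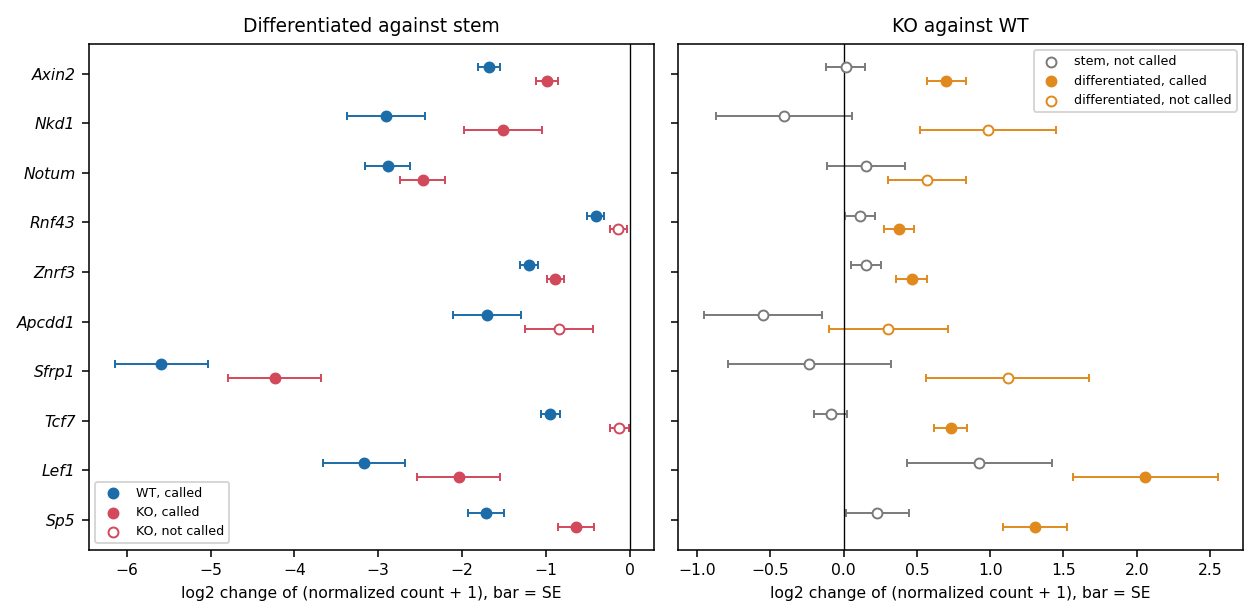
Log2 changes of the 10 genes (x axes, log2 of normalized count + 1, bars ± SE from limma). The left panel shows the differentiated against the stem cell condition in WT (blue) and KO (red), and the right panel KO against WT in the stem cell (grey) and differentiated (orange) condition, with filled symbols for called genes. For every gene the WT change lies further below 0 than the KO change. On the right, no grey symbol is filled, and 6 orange symbols are filled, all above 0.

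The difference between the responses of KO and WT passed the test for Axin2 and Tcf7, and for none of the other 8 genes. The interaction terms of all 10 were above 0. They lay between 0.27 (Rnf43) and 1.08 (Sp5) for the 6 genes at 10 or more in every library, with a median of 0.55, against 0.04 for all genes tested. For this term 5.12% of all genes were called in this direction, 3.58% in the other and 8.7% in either. Without WT stem library 1 the count was 4 (Axin2, Tcf7, Sp5 and Rnf43), 2 (Tcf7 and Sp5) without KO differentiated library 2, and 1 (Tcf7) without any 1 of the other 10 libraries. The same 4 groups of libraries enter the KO comparisons in both conditions and the interaction, so these are not independent views of the genes.

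The other genes of the pathway were counted by role, from a list of 97 genes of which 66 were tested. In KO against WT after Wnt-3A was left out, 18 of the 66 rose and 6 fell, where 13.8% of all genes rose and 13.9% fell, and the median log2 change of the list was 0.17. In the stem cell condition 4 rose and 1 fell, where 3.48% of all genes rose and 3.09% fell. On leaving out Wnt-3A, 25 rose and 22 fell in WT, shares near those of all genes (36.3% and 35.9%). In KO 33 rose and 14 fell, where 34.1% and 33.6% of all genes did.

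Among the Wnt ligands, 8 of 19 were tested and 3 rose in KO differentiated organoids, in a comparison in which 27.6% of all genes were called. Wnt10a went from 122 to 490.3 (1.97 ± 0.40, adjusted p = 0.00566) and Wnt5b from 39.3 to 192 (2.20 ± 0.36, adjusted p = 0.00207). The most abundant ligand, Wnt7b, went from 4231 to 8786 (1.02 ± 0.29, adjusted p = 0.0224) and was chosen after its values were seen. In the stem cell condition the log2 changes of all 8 ligands were above 0 in KO against WT, with a median of 0.83, against 0.76 in the differentiated condition. The stem means of Wnt6 (29.9 in KO, 34.4 in WT) and Wnt7a (44.2 and 53.3) went the other way. For both, named after their values were seen, WT stem library 1 was the highest stem library (86.4 and 116). Repeats without it were not run for the ligands. Only Wnt5b was called in the stem cell condition (1.41 ± 0.36, adjusted p = 0.0395), where 6.57% of all genes were, and Wnt7b went from 5038 to 9619. The interaction was called for 0 of the 8 ligands and for 8.7% of all genes. In KO differentiated organoids, 6 of 14 receptors and co-receptors tested rose and 2 fell. Fzd2 rose from 117 to 348 (1.57 ± 0.33, adjusted p = 0.00666). The R-spondin receptor genes went in opposite directions. Lgr5, the stem cell receptor, rose from 1868 to 3788 (1.02 ± 0.32, adjusted p = 0.035) and Lgr4 fell from 11147 to 7039.6 (-0.69 ± 0.13, adjusted p = 0.00386).

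In the same comparison, with 27.6% of all genes called, the lists of proteins inside the cell were as follows. Of 13 cytoplasmic transducers 1 rose, Amer1, which binds the destruction complex (0.50 ± 0.10, adjusted p = 0.00617), and 0 fell. Of 11 nuclear factors 1 rose, the beta-catenin cofactor gene Bcl9l (0.31 ± 0.08, adjusted p = 0.0119), and 3 fell, among them Tcf7l2 from 2060.0 to 1407 (-0.55 ± 0.11, adjusted p = 0.00512). Tcf7l2 belongs to the same TCF/LEF family as Tcf7 and Lef1, which rose in that comparison. Of 13 other Wnt target genes 6 rose and 0 fell, with Tnfrsf19 going from 9.16 to 59.6 (2.50 ± 0.30, adjusted p = 5.03e-04) and Smoc2 from 62.7 to 276 (2.12 ± 0.35, adjusted p = 0.00238). With Wnt-3A present, where 6.57% of all genes were called, Tnfrsf19 (1.49 ± 0.30, adjusted p = 0.0149) and Bcl9l (0.31 ± 0.08, adjusted p = 0.0361) were higher in KO too. Ascl2, another of the 13 target genes, was lower there (-0.71 ± 0.18, adjusted p = 0.0401).

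On leaving out Wnt-3A in WT, where 36.3% of all genes rose and 35.9% fell, 3 of the 13 other target genes rose and 6 fell. Ascl2, a transcription factor gene of stem cells, had a log2 change of -3.75 ± 0.18 and Tnfrsf19 one of -5.20 ± 0.30. Of the 11 nuclear factors 7 rose and 0 fell, among them the co-repressor gene Tle2 (2.28 ± 0.23). Ctnnb1, which encodes beta-catenin, rose by 1.69 ± 0.08 in WT and by 1.73 ± 0.08 in KO, from 62030.2 to 200075 and from 57055 to 188606 normalized counts.

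**Figure D3:**
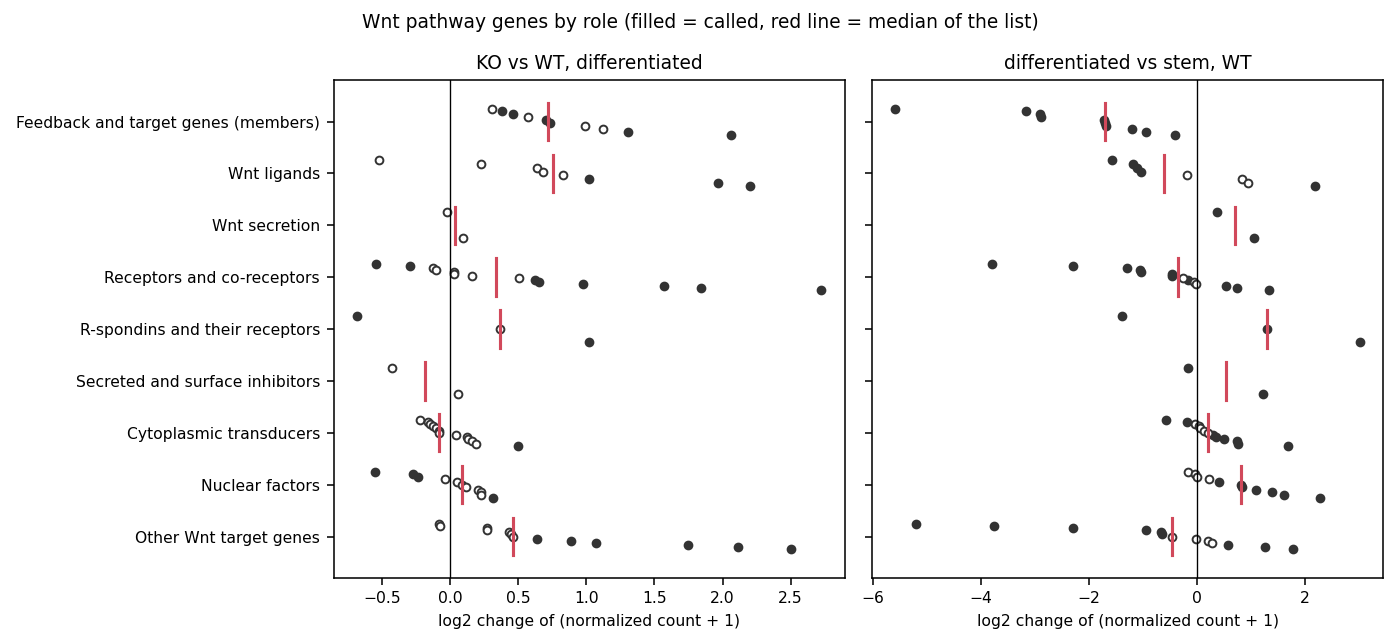
Log2 changes (x axes, log2 of normalized count + 1) of the tested Wnt pathway genes by role (y axis), for KO against WT in the differentiated condition (left) and for the differentiated against the stem cell condition in WT (right). Each point is 1 gene, filled where called, and the red line is the median of its list. In the top line, the 10 feedback and target genes all lie right of 0 in the left panel and left of 0 in the right panel, with medians of 0.72 and -1.71, whereas the other lists lie on both sides of 0 in at least 1 panel.

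The genes most like Axin2 were taken as those whose log2 values, centred on their own mean, had the smallest root mean square difference from it over the 12 libraries. They were Zbed3 (0.11 on the log2 scale), Dnajc27 (0.13), Cfap43 (0.15), Etv5 (0.15) and Tulp3 (0.15). For Rnf43 the nearest genes were Myadm (0.067) and Jmy (0.082), for Tcf7 Cish (0.094) and Mfsd10 (0.12), for Znrf3 Scrn3 (0.11) and Wdr91 (0.11), and for Sp5 Fstl3 (0.23) and Ogdhl (0.23). Among the 5 nearest genes kept for Axin2 and the 2 kept for each other gene, none was another of the 10. Notum and Nkd1 shared their nearest gene, Sh2b2, at 0.28 and 0.45. For the low genes the nearest patterns were distant, at 0.56 for Lef1 (Acot1), 0.60 for Sfrp1 (Mxd3) and 0.31 for Apcdd1 (Cep78). The points share libraries and depth, so these distances are a description.

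RefSeq promoter windows of 300 bases (250 before and 50 after the start site) were at hand for 6 of the 10 genes, in 11 windows. A TCF/LEF core was in windows of 2 of these 6, Sp5 and Lef1, and in 18.9% of 27025 genes (16.9% of 32851 windows). The Lef1 core was CTTTGTA on the strand opposite to the gene, from base -147 of the start site at chr3:131156294, which is an inner start site of the gene. The letters TNGCGTG, the core of the AhR binding motif, were in the window of 1 of the 6, Nkd1 (from base -162), and in 5.84% of all genes. Axin2, Rnf43 and Tcf7 held neither in these windows.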

How the data were processed

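The authors deposited 1 table of normalized counts per gene and library, a signal that is neither raw counts nor CPM. The submitters' processing notes name GRCm38, Bowtie2, RSEM 1.2.11 and DESeq2 1.18.1. The annotation and the strand setting are not given in the sources used here. All values (100%) were whole multiples of 1 step per library within 0.05 of a read, so reads were recovered by division.

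Groups came from the sample titles. Genes with at least 10 normalized counts in at least 3 libraries (14856) were fitted as log2(value + 1) with limma 3.58.1 in R 4.3.3, with 1 mean for each of the 4 groups and a trended prior variance, two-sided, with Benjamini-Hochberg adjustment. Floors in reads cover counting error only. Positions are from GENCODE vM21 (GRCm38), which matched 99.1% of identifiers, and promoters from RefSeq (GRCm38.p6). Protein sequences were not used here.

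The 10 genes were always named. Of each role list and comparison, up to 2 called genes with the largest change and a mean of at least 50 in a group could be named. The members and lists were chosen with earlier results of these data known.

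Repeats used pseudocounts of 0.5 and 5, no filter, a mean of at least 50, quantile normalization, edgeR 4.0.16 (quasi-likelihood test, TMM) and DESeq2 1.42.0 on recovered reads, only the groups compared, the replicate number as a block, and each library left out. Leaving out WT stem library 1 and KO differentiated library 1 together was chosen after seeing the data. On the recovered reads edgeR called 943 genes for KO against WT in the stem cell condition, 4092 in the differentiated condition, 10653 and 10120 for differentiated against stem cell condition in WT and KO, and 1220 for the interaction. The fit was also run on simulated counts with the same dispersion for every gene and changes in KO stem only. Such counts hold no libraries that stand apart, so that run says nothing about their effect.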

Additional observations from a re-analysis of the deposited data

Results flagged for a closer look

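By the interaction term of the limma fit, the response to leaving out Wnt-3A differed between KO and WT for 2 of the 10 genes. It also differed for 3 of 13 other Wnt target genes tested, and these 3 were all that was called among the 66 other pathway genes tested. Of all genes, 8.7% were called for this term, and 5.12% with a term above 0. The log2 difference was 0.69 for Axin2 (adjusted p = 0.0466) and 0.82 for Tcf7 (adjusted p = 0.0161). Axin2 fell in both genotypes, and Tcf7 fell in WT and was not called in KO. The Axin2 call was lost without any 1 of 11 libraries, all but WT stem library 1. It was also lost with the replicate number as a block in limma (adjusted p = 0.0503).

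Ascl2, which encodes a transcription factor of stem cells, differed by 1.78 ± 0.26 (adjusted p = 0.00975). Its stem libraries were at 859, 1186 and 881 in WT and at 546, 561 and 667 in KO, and its differentiated libraries at 80.1, 58.5 and 75.0 in WT and at 169.9, 119.7 and 164 in KO. KO was thus below WT with Wnt-3A and above it without. Smoc2, a matrix protein gene of crypt base cells, differed by 1.79 ± 0.50 (adjusted p = 0.0493). Cd44, a surface glycoprotein gene, differed by 0.94 ± 0.16 (adjusted p = 0.0122). It did not fall in either genotype, going from 17417 to 20207 in WT, where it was not called (0.22 ± 0.12, adjusted p = 0.109), and from 14049 to 31677 in KO (1.16 ± 0.12, adjusted p = 4.04e-06). The repeats with other settings were not run for these 3 genes.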

How the results depend on the processing

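Over 1105 repeats of single-gene results, 1055 kept direction and side of the threshold, 23 lost the call, 15 gained one and 12 changed sign. The sign changes concern genes that were not called. Apcdd1 in KO against WT, differentiated, was -0.0069 with quantile normalization and -0.088 to 0.60 over the repeats without 1 library. In KO against WT, stem, Axin2 was -0.0025 with DESeq2, and without 1 library Axin2 was -0.13 to 0.11, Rnf43 -0.014 to 0.19, Sfrp1 -0.66 to 0.44 and Notum -0.16 to 0.33. Without WT stem library 1 and KO differentiated library 1 together, Axin2 was -0.13, Rnf43 -0.014 and Sfrp1 0.44 in that comparison, and Apcdd1 was -0.088 in the differentiated one. The causes were not tested.

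The count of the 10 genes called stayed at 0 for KO against WT, stem, and at 10 for WT differentiated against stem, except that a mean of at least 50 left 7 to test in the latter. It was 4 to 7 for KO against WT, differentiated, and 6 to 9 for KO differentiated against stem over the repeats without 1 library, and 6 and 10 without both named libraries. For the interaction it was 1 with no filter, quantile normalization or edgeR, 1 to 4 without 1 library, and 4 without both libraries. Axin2 had interaction adjusted p-values of 0.0718 with no filter, 0.0634 with quantile normalization and 0.0582 with edgeR. Sp5 was called with a mean of at least 50 (0.0453) and with DESeq2 (0.00589). Apcdd1 in KO differentiated against stem was called with quantile normalization (0.022).

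Of all genes, the interaction called 1292, and 750 with no filter, 2439 with DESeq2, 1675 without both libraries and 342 to 1603 without 1 library. KO against WT, stem, called 976, and 1984 with DESeq2, 297 with only the groups compared, 2664 without both libraries and 363 to 1414 without 1 library. KO against WT, differentiated, called 4103, and 2233 to 5699 without 1 library.

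The replicate numbers are shared between groups, but the labels do not say that they mark an animal or batch. Deviations of same-numbered libraries of 1 genotype correlated at 0.055 to 0.286, over 0.1 for 5 of 6 pairs. Among libraries of its own genotype in the other condition, each of the 12 correlated best with its own number, a hint from the data and not from the design. Across genotypes this did not hold. WT stem library 2 correlated at 0.184 with KO differentiated library 3, and same-numbered libraries at -0.051 to 0.201, over 0.1 for 2 of 12 pairs. With the replicate block 1486 genes were called for KO against WT, stem, and 2141 for the interaction, with 1 of the 10 genes (Axin2 adjusted p = 0.0503). With the block within genotype the interaction p was 0.0701 for Axin2 and 0.0361 for Sp5.

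Depth limits Nkd1, Sfrp1, Lef1 and Apcdd1, which had 6, 7, 11 and 16 reads in all WT differentiated libraries together.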
